A study of Mus musculus with 8 samples.

Results

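The 10 genes described here encode the desaturases and elongases that build polyunsaturated and very long-chain fatty acids, together with close family members: Fads1, Fads2, Fads3, Fads6, Elovl1, Elovl2, Elovl3, Elovl5, Scd2 and Hacd3. They were chosen by name, by gene family and function, and are 10 of the 41388 features counted in each library. Liver RNA was sequenced from 8 db/db mice of strain C57B/6J, all of which lack a working leptin receptor and become obese and diabetic. Mice were randomised at 5 weeks of age, given an adenovirus through the tail vein and sampled at 10 weeks, after 4 to 5 weeks of overexpression by the series' own account, while the study's methods and one of its legends on db/db mice given these vectors state shorter times after delivery. All mice were male according to the study, and the labels give no sex. In 4 mice (AdGFP) the virus carried green fluorescent protein, and in the other 4 (AdNAMPT) it carried NAMPT, the enzyme that makes nicotinamide mononucleotide in the salvage route to NAD. The genotype label reads "control" for AdGFP and "NAMPT overexpression" for AdNAMPT, so the db/db background comes from the sample titles, and the promoter that drives either transgene is not given in the sources used here. The comparison asks whether NAMPT delivery to a leptin receptor-deficient liver changed the transcripts of this pathway.

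Mammals cannot make linoleic and alpha-linolenic acid and convert them, mainly in the liver, by alternating desaturation and elongation. FADS2 introduces the first new double bond, ELOVL5 lengthens the chain, FADS1 introduces the next double bond to give arachidonic and eicosapentaenoic acid, and ELOVL2 extends these products on the way to docosahexaenoic acid, whose last step is a shortening in peroxisomes. Each round of elongation also needs a ketoreductase, a dehydratase such as HACD3 and a reductase, and in liver many of these genes are known targets of SREBP-1c, which insulin activates and polyunsaturated fatty acids restrain.

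Total counts were between 12006713 and 19879814 per library, so 3 counts, taken as the smallest detectable amount, corresponded to 0.151 to 0.250 CPM (counts scaled to library size). Hepatocyte markers summed to 117711 to 144289 CPM in AdGFP and 103262 to 134011 CPM in AdNAMPT, whereas all 4 adipocyte markers (Adipoq, Plin1, Lep and Cfd) were at 0 in at least 1 library and summed to at most 1.07 CPM. Kupffer cell markers summed to 268.5 to 340.8 CPM in AdGFP and 180.4 to 309.4 CPM in AdNAMPT, with the lowest sum in AdNAMPT replicate 1. This library was also the smallest and had the lowest weight in the model, 0.440 against 0.811 to 1.41 for the other 7. Mitochondrial ribosomal RNA took 1.77% to 2.56% of counts in AdGFP and 0.863% to 1.62% in AdNAMPT, and the repeat-derived transcript Gm42418 took 0.996% to 2.25% and 0.200% to 0.233%. These differences in library composition cannot be told apart from the groups. Values by mouse are listed from replicate 1 to 4 of each group, an order that carries no meaning. The AdGFP livers held 107.3, 148.6, 159.5 and 147.9 CPM of Nampt itself, and the AdNAMPT livers held 144.1, 120.3, 171.7 and 168.0 CPM. The groups overlapped, with a log2 fold change of 0.08 (SE 0.15, limma adjusted p = 0.915), so the transcript of the transferred gene does not separate the labels in these libraries. The study set its vector conditions for a moderate rise of NAMPT in hepatocytes and describes the adenovirus used on cultured hepatocytes as carrying murine NAMPT. Endogenous and vector transcripts were not told apart in these counts. AdNAMPT is used below as the name of the group as labelled.

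None of the 10 genes changed between AdNAMPT and AdGFP at an adjusted p of at most 0.05 by limma, against 34 of the 12270 genes tested (0.277%), of which 2 were higher (0.0163%) and 32 lower (0.261%). All 10 passed the filter on low counts. Estimates were higher in AdNAMPT for 6 genes and lower for 4, with a median log2 fold change of 0.0091 beside 0.0015 for all tested genes. An unadjusted p under 0.05 was reached by 1 of the 10 (Elovl2), which was lower in AdNAMPT, where 9.69% of all tested genes reached it, 4.65% higher and 5.04% lower. The groups overlapped for every one of the 10 genes, while 4.79% of all tested genes had groups that did not overlap, or 8.22% with scaling by library size alone and 4.68% with DESeq2's size factors, by which 0 of the 10 were apart as well. In 17 alternative fits, edgeR's quasi-likelihood and exact tests and DESeq2 included, 0 of the 10 genes passed the adjusted threshold. Several of them differed widely between mice of the same group, a spread they shared with the lipogenic genes, as the values by library below show.

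**Figure D1:**
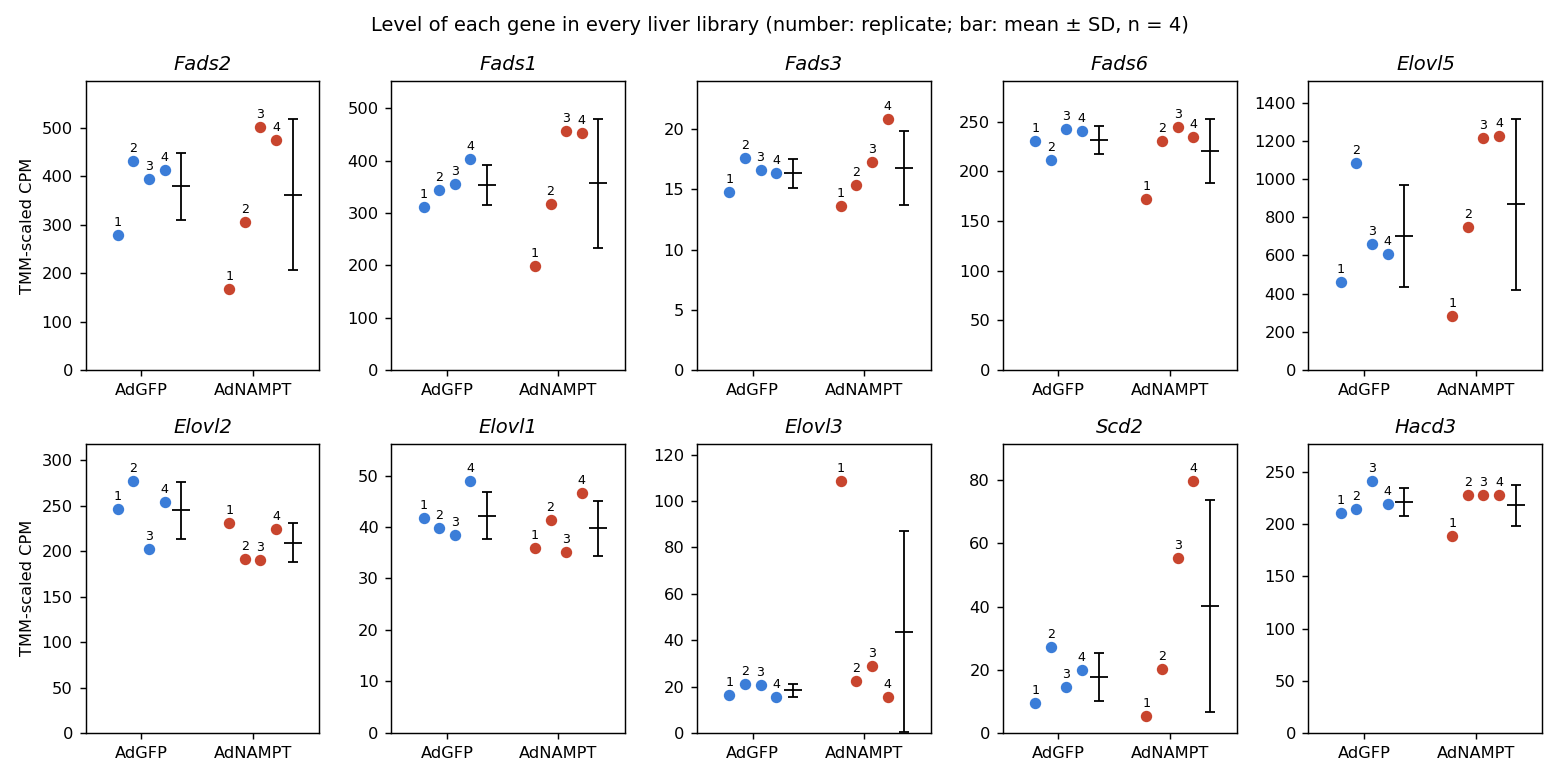
Level of each of the 10 genes in every library, in TMM-scaled CPM on linear axes that differ between genes (points: mice; bars: group means with SD, n = 4 per group). The groups overlap for every gene; Scd2 ranges from 5.48 to 79.6 CPM and Hacd3 only from 188.9 to 241.0 CPM.

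The level of a gene is given below as CPM scaled by TMM factors, and levels are compared between genes only as the deposited RPKM, which divides by exonic length. By median RPKM over the 8 libraries the order was Fads2 (255.9), Elovl5 (196.5), Fads1 (95.1), Hacd3 (80.2), Elovl2 (59.7), Fads6 (34.7), Elovl1 (14.1), Elovl3 (13.1), Fads3 (4.82) and Scd2 (3.60). Hacd3 and Elovl2, Elovl2 and Fads6, Fads6 and Elovl1, and Elovl3 and Fads3 did not overlap in range. The remaining neighbours overlapped, and Fads2 exceeded Elovl5 in only 4 of 8 libraries, so the first place was shared. The length behind the RPKM of Fads2 was 1508 bases, whereas its exons in GENCODE M21 cover 3295 bases, 2.19 times as many. The same ratio was 1.39 for Fads1, 1.32 for Elovl3 and 1.16 for Fads3, so the places of these genes in the order, the first place of Fads2 included, and the ratio of Fads1 to Fads2 depend on the gene model behind the deposited RPKM. Reads were not recounted on the longer models.

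The 3 clustered fatty acid desaturases lie side by side on chromosome 19 of GRCm38. Fads3 spans chr19:10041548-10059671 on the plus strand, Fads2 spans chr19:10064164-10101503 on the minus strand, and Fads1 spans chr19:10182888-10196870 on the plus strand. Fads2, the gene of the first and rate-limiting desaturation, measured 278.4, 431.7, 394.2 and 411.9 CPM in the AdGFP mice, and 166.7, 306.4, 500.4 and 474.8 CPM in the AdNAMPT mice. AdNAMPT replicate 1 was the lowest and AdNAMPT replicates 3 and 4 the highest of all 8 mice, so the AdNAMPT mice lay on both sides of the AdGFP range. AdGFP averaged 379 ± 68.8 CPM and AdNAMPT 362 ± 156.1 CPM (± SD over 4 mice, as in all means here), with a log2 fold change of -0.05 (SE 0.25, limma adjusted p = 0.972) and a 95% interval of the fold from 0.664 to 1.41. Fads1, whose enzyme completes arachidonic and eicosapentaenoic acid, measured 311.3, 343.4, 355.5 and 403.5 CPM in AdGFP, and 199.8, 316.8, 457.2 and 453.2 CPM in AdNAMPT. Its extremes were those same AdNAMPT mice. The means of Fads1 were 353.4 ± 38.2 and 356.7 ± 123.3 CPM, a log2 fold change of 0.013 (SE 0.18, limma adjusted p = 0.990). The interval of the Fads1 fold was 0.764 to 1.33, which gives the folds compatible with these mice and is not a limit of detection.

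Fads1 and Fads2 ranked the AdNAMPT mice in the same order. In AdGFP both were lowest in replicate 1, but Fads2 was highest in replicate 2 and Fads1 in replicate 4. The ratio of Fads1 to Fads2 RPKM stayed between 0.347 and 0.523 over all 8 livers and averaged 0.414 ± 0.0593 in AdGFP and 0.447 ± 0.0550 in AdNAMPT. Fads3, a family member that desaturates the sphingoid base of ceramides, lay between 13.6 and 20.9 CPM and varied 1.53-fold. Fads6, at chr11:115279622-115297663 on the minus strand and without an assigned substrate, lay between 172.3 and 244.2 CPM, and its lowest value was again in AdNAMPT replicate 1. Log2 fold changes were 0.07 (SE 0.11, limma adjusted p = 0.893) for Fads3 and -0.04 (SE 0.09, limma adjusted p = 0.921) for Fads6.

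Elovl5, whose enzyme elongates the products of FADS2, varied more than either partner desaturase. The AdGFP mice held 459.8, 1084, 662.4 and 607.1 CPM, and the AdNAMPT mice held 284.7, 749.1, 1213 and 1224 CPM. Of the 4 AdNAMPT mice, 2 were above every AdGFP mouse, 1 was below every AdGFP mouse, and AdGFP replicate 2 came close to the highest. The means were 703.3 ± 267.8 and 868 ± 447.4 CPM, with a log2 fold change of 0.41 (SE 0.33, limma adjusted p = 0.739) and an interval of the fold from 0.797 to 2.21. Leaving out AdNAMPT replicate 1 raised the estimate to 0.72 (95% interval 0.17 to 1.27, limma unadjusted p = 0.0151, adjusted p = 0.363). In that fit 3 of the 10 genes (Elovl5, Elovl2 and Scd2) had an unadjusted p under 0.05, beside 10.5% of all tested genes. Dropping AdNAMPT replicate 3 or 4 instead lowered the Elovl5 estimate, to 0.15 and 0.13. Dropping AdGFP replicate 1 lowered it to 0.22, and limma with no sample weights gave 0.14. The omission of replicate 2 raised it, to 0.65 in AdNAMPT and 0.55 in AdGFP. Dropping AdGFP replicate 3 or 4 left it at 0.39. The size of the Elovl5 estimate thus turned on single mice.

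Elovl2, the elongase of the longer polyunsaturated chains that precede docosahexaenoic acid, did not share this pattern. Its level was 246.3, 276.9, 202.6 and 254.3 CPM in AdGFP, against 231.3, 191.6, 190.7 and 225.0 CPM in AdNAMPT. Of the AdNAMPT mice 2 were below every AdGFP mouse and the others lay within the AdGFP range. Elovl2 averaged 245.0 ± 31.1 and 209.6 ± 21.5 CPM, a fold of 0.846 (95% interval 0.721 to 0.994), with a log2 fold change of -0.24 (SE 0.11, limma unadjusted p = 0.0428, adjusted p = 0.504). The estimate was negative in each of the 17 alternative fits, from -0.33 to -0.16. Its unadjusted p was 0.0672 by edgeR's quasi-likelihood test, 0.0959 by edgeR's exact test and 0.059 by DESeq2's Wald test. By limma the unadjusted p was 0.158 with library size alone, 0.0474 with a replicate block and 0.044 without AdNAMPT replicate 1. An exact two-sided permutation test over the 70 assignments of the labels gave p = 0.143, where 0.0286 is the smallest it can give. The ratio of Elovl5 to Elovl2 RPKM was 2.04, 4.28, 3.58 and 2.61 in AdGFP and 1.35, 4.28, 6.96 and 5.95 in AdNAMPT. The 2 elongases therefore stood in different proportion from mouse to mouse, by more within AdNAMPT than between the group means.

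**Figure D2:**
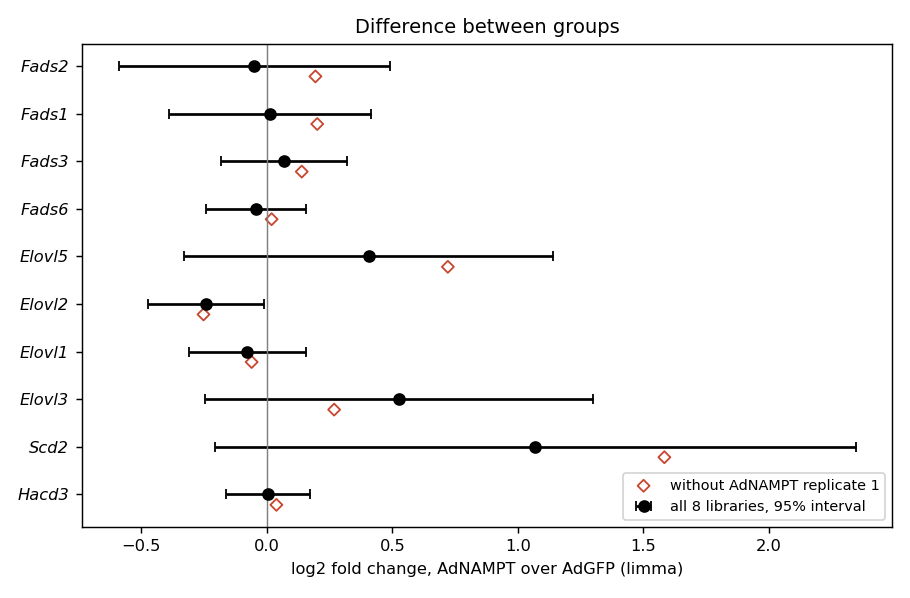
Log2 fold change of AdNAMPT over AdGFP for each of the 10 genes by limma (filled points: estimates from all 8 libraries, n = 4 mice per group; bars: their 95% intervals; open diamonds: estimates without AdNAMPT replicate 1). Only the interval of Elovl2, from -0.47 to -0.01, does not reach 0 before adjustment, and Scd2 has the widest interval, from -0.21 to 2.35.

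Scd2, a stearoyl-CoA desaturase that makes monounsaturated fatty acids and whose adult liver level is far below that of Scd1, lies at chr19:44293676-44306864 on the plus strand. The AdGFP mice held 9.39, 27.2, 14.6 and 19.8 CPM and the AdNAMPT mice 5.48, 20.3, 55.3 and 79.6 CPM, from 68 to 1351 counts. AdNAMPT replicates 3 and 4 were above every AdGFP mouse, AdNAMPT replicate 1 was below every AdGFP mouse, and AdNAMPT replicate 2 lay among them. The means were 17.8 ± 7.60 and 40.2 ± 33.6 CPM, a log2 fold change of 1.07 (SE 0.58, limma adjusted p = 0.603) with an interval of the fold from 0.867 to 5.08. The estimate turned on single mice: it was 1.58 without AdNAMPT replicate 1 (limma unadjusted p = 0.00353, adjusted p = 0.247), 0.51 without AdNAMPT replicate 3 and 0.45 without AdNAMPT replicate 4. Scd2 and Scd1 both varied by about an order of magnitude over the 8 livers, 14.5-fold for Scd2 and 10.8-fold for Scd1, whose RPKM ran from 403.0 to 4733. Scd2 RPKM was 0.123% to 0.407% of that of Scd1, and the largest share was in AdGFP replicate 1, where Scd1 was lowest.

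**Figure D3:**
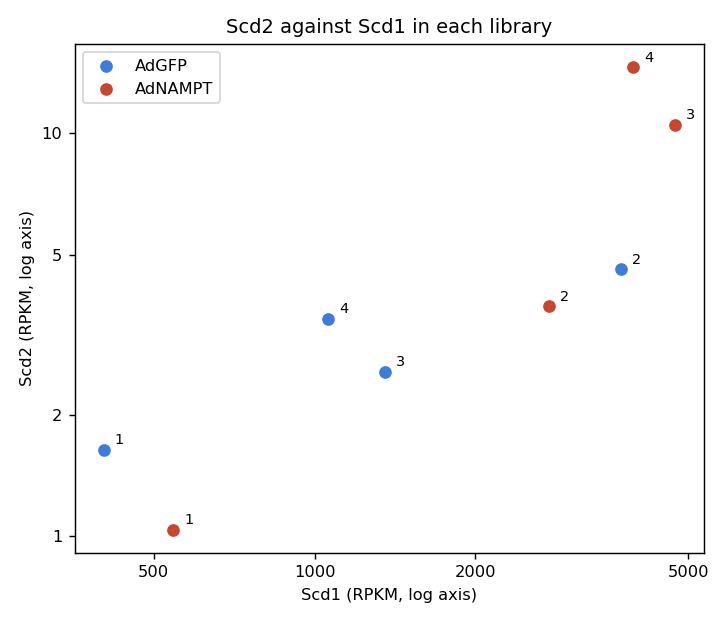
RPKM of Scd2 against that of Scd1 in each of the 8 libraries, both on log axes, with the 4 mice of each group in 1 colour. Scd1 runs from 403.0 to 4733 RPKM, and mice of both groups are found at its low and its high end.

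The elongases of saturated and monounsaturated chains behaved differently from each other. Elovl1, which serves very long-chain saturated fatty acids and sphingolipids, lay between 35.1 and 48.9 CPM, with a log2 fold change of -0.08 (SE 0.11, limma adjusted p = 0.861). Its annotated exons share 53 bases with those of Cdc20 on the other strand, 1.94% of its length, and whether counting used strand is not stated. Elovl3, at chr19:46131897-46135307 on the plus strand, elongates saturated and monounsaturated chains and is known in mouse liver for a higher level in males. Elovl3 measured 16.4, 20.9, 20.7 and 15.4 CPM in AdGFP, and 108.4, 22.2, 28.8 and 15.4 CPM in AdNAMPT. A single mouse, AdNAMPT replicate 1, held the high value, and the other 7 lay between 15.4 and 28.8 CPM.

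That one library also set the size of the Elovl3 difference. The weighted limma fit gave a log2 fold change of 0.53 (SE 0.35, limma adjusted p = 0.674), limma without sample weights gave 0.77 (limma adjusted p = 0.755), edgeR's quasi-likelihood test gave 1.24 (unadjusted p = 0.0379, adjusted p = 0.601), and the weighted limma fit without AdNAMPT replicate 1 gave 0.27. With edgeR's quasi-likelihood test 8.0% of all tested genes had an unadjusted p under 0.05. Among 11 genes known to be higher in female mouse liver, all 11 had their lowest value in AdNAMPT replicate 1. Of all tested genes, 22.7% had their lowest value there. The 11 genes summed there to 218.1 CPM, of which Cyp2b9 supplied 158.5 CPM, while the sums of the other 7 libraries were 1263 to 1820 CPM. Cyp3a41a, A1bg and Cux2 were at 0.161, 0.242 and 0.403 CPM in AdNAMPT replicate 1, near the smallest detectable amount. Among 7 tested genes known to be higher in male liver, Elovl3 not counted, 6 had their highest value in AdNAMPT replicate 1. Of all tested genes, 21.5% had their highest value there. The male list of 8 summed to 3933 CPM in that library against 1038 to 1656 CPM elsewhere, and Ugt2b1 and Cyp2d9 supplied 1306 and 1095 CPM of it. The sum over 12 clock genes, which lay between 530.1 and 587.1 CPM, was 534.5 CPM in that library. Tef supplied 219.3 CPM of it, so the sum cannot show the state of the less abundant clock genes. Of the 11 tested clock genes, 2 had their lowest and 1 its highest value there. Y-linked genes (Ddx3y, Uty, Eif2s3y and Kdm5d) summed to 203.1 to 243.0 CPM in all 8 libraries, with 243.0 CPM in AdNAMPT replicate 1. Xist, the noncoding RNA that silences an X chromosome in females, was at 0.484 CPM there and at most 0.389 CPM in the others except AdNAMPT replicate 4, where it was at 21.3 CPM. These lists were written after the Elovl3 values were seen, and their part in the result was not tested.

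Hacd3, the dehydratase of the elongation cycle, at chr9:64986985-65021717 on the minus strand, was the steadiest of the 10. It measured 210.7, 214.4, 241.0 and 219.3 CPM in AdGFP, and 188.9, 227.6, 227.8 and 227.8 CPM in AdNAMPT. AdNAMPT replicate 1 was the lowest and the other AdNAMPT mice lay within the AdGFP range. The means were 221.4 ± 13.6 and 218.0 ± 19.4 CPM, with a log2 fold change of 0.0054 (SE 0.08, limma adjusted p = 0.990) and an interval of the fold from 0.893 to 1.13, the narrowest among the 10.

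The spread between mice of a group, as the SD of log2 level pooled over both groups, had a median of 0.18 over all tested genes. Scd2 stood at percentile 99.6, Elovl3 at 98.9, Elovl5 at 98.5, Fads2 at 95.3 and Fads1 at 89.3. The lipogenic reference genes, usually listed as SREBP-1c targets in liver, spread as far: 12 of their 14 lay above percentile 95, among them Pnpla3 at 100.0, Scd1 at 99.7, Fasn at 99.5, Elovl6 at 99.4 and Acly at 99.2. Elovl2, Elovl1 and Fads6 lay close to the median, at percentiles 47.0, 47.5 and 48.5, and Hacd3 lay at 20.8. The spread was larger in AdNAMPT than in AdGFP for 9 of 10 genes, against 59.8% of all tested genes, and Elovl2 was the exception. Without AdNAMPT replicate 1 it was larger in AdNAMPT for 6 of 10, against 46.9%. For Fads1 the SD was 0.15 in AdGFP, 0.56 in AdNAMPT and 0.30 in AdNAMPT without replicate 1, and for Elovl5 it was 0.52, 0.99 and 0.41.

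**Figure D4:**
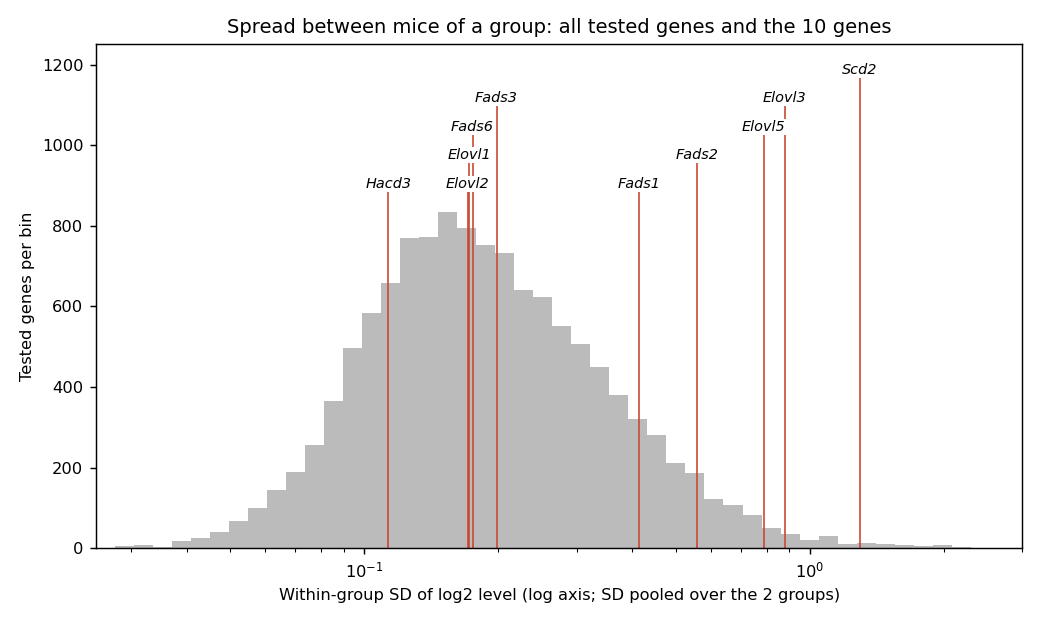
Within-group SD of log2 level for all 12270 tested genes (grey bars: genes per bin, log axis) with the 10 genes as red lines. Hacd3 lies on the left of the distribution at percentile 20.8, and Fads2, Elovl5, Elovl3 and Scd2 lie beyond the 95th percentile.

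AdNAMPT replicate 1 was the lowest of the 8 libraries for 7 of the 10 genes and the highest for 1, Elovl3. Over all tested genes it was the lowest for 22.7% and the highest for 21.5%. Relative to the mean of its group on the log2 scale, it lay at -0.76 for Fads1, -0.99 for Fads2, -1.40 for Elovl5 and -2.25 for Scd2, and at 1.75 for Elovl3. The other end was held by AdNAMPT replicates 3 and 4, at 0.43 and 0.42 for Fads1, 0.59 and 0.52 for Fads2, 0.69 and 0.71 for Elovl5, and 1.06 and 1.58 for Scd2. In AdGFP the same 3 of these genes, Fads2, Elovl5 and Scd2, had their lowest value in replicate 1 and their highest in replicate 2, and Fads1 was lowest in replicate 1 and highest in replicate 4.

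With the group means removed, Pearson's r over the 8 livers was 0.967 between Fads1 and Fads2, 0.954 between Fads2 and Elovl5, 0.976 between Fads2 and Scd2, and 0.961 between Elovl5 and Scd2. Without AdNAMPT replicate 1 these were 0.883, 0.846, 0.926 and 0.879. Between Fads1 and Elovl5 r fell from 0.872 to 0.538. Between Elovl3 and Fads1 it was -0.834 with AdNAMPT replicate 1 and -0.12 without it, so that inverse relation rested on 1 mouse. The points are 8 mice that share library, depth and scaling for every gene, and r is given as a description. Elovl5 also varied with the lipogenic genes Fasn, the fatty acid synthase (r = 0.992, and 0.978 without AdNAMPT replicate 1), and Elovl6, the elongase of palmitate (0.987 and 0.985). Bulk RNA does not tell fewer hepatocytes of a kind from less RNA per cell.

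**Figure D5:**
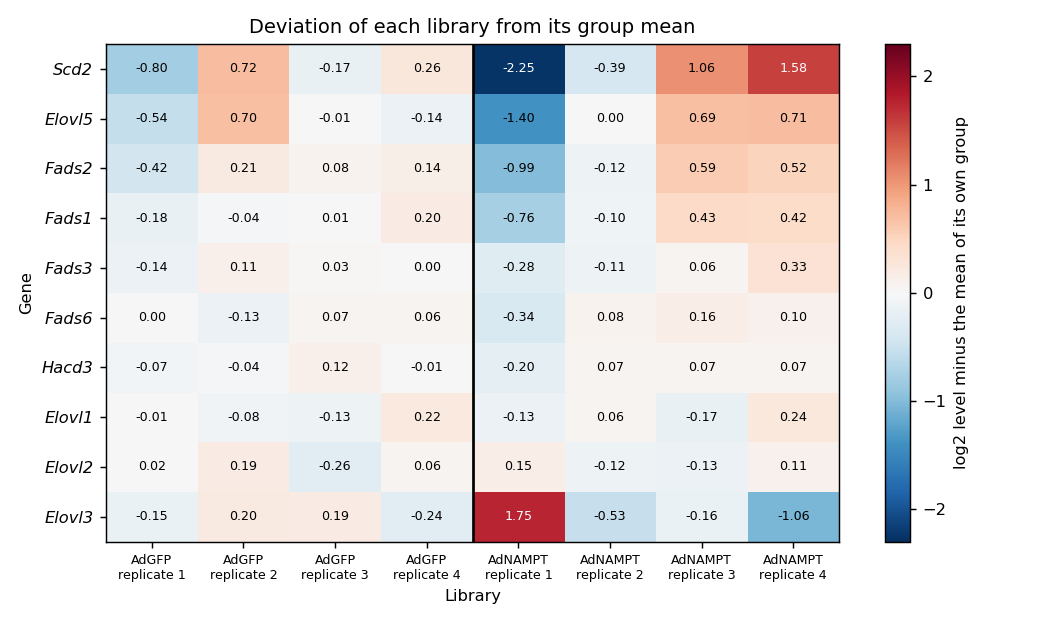
Deviation of each gene in each mouse from the mean of its group, on the log2 scale (rows: the 10 genes; columns: the 8 libraries; red above and blue below the group mean). AdNAMPT replicate 1 is at -2.25 for Scd2 and -1.40 for Elovl5 and at 1.75 for Elovl3, and the row of Hacd3 stays close to 0.

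The stretch of 250 bases before the transcription start, from RefSeq on GRCm38.p6, is shown for 3 genes: Elovl5 and Fads2, which varied together between mice, and Hacd3, which hardly varied. Capitals mark matches, on either strand, to the NF-Y box CCAAT and to the palindromic E-box CACGTG. On the minus strand the NF-Y box appears as ATTGG. No match overlapped another.
Elovl5, chr9:77917115-77917364, plus strand: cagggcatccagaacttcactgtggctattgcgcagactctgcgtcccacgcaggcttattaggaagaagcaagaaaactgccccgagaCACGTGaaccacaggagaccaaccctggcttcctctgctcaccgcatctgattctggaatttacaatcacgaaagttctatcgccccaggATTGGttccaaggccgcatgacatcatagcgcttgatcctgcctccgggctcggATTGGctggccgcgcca
Fads2, chr19:10101504-10101753, minus strand: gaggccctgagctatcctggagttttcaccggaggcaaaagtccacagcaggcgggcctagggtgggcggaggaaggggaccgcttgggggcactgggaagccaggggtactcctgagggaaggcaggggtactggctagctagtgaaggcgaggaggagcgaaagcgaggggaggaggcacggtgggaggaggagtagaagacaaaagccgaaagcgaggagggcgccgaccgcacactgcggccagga
Hacd3, chr9:65021718-65021967, minus strand: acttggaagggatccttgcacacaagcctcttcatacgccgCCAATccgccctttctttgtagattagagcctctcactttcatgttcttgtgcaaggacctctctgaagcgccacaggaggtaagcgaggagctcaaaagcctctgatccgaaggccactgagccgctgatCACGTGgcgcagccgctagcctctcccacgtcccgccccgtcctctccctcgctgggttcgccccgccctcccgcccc

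Elovl5 held the E-box 161 to 156 bases before the start and 2 NF-Y boxes on the other strand, at 71 to 67 and 17 to 13 bases before it. Hacd3 held an NF-Y box at 209 to 205 bases and an E-box at 78 to 73 bases before the start. The Fads2 window held neither. The SREBP-type element TCACNCCAC, in which N is any base, was in none of the 9 windows available for 7 of the 10 genes and in 1.05% of all 32851 windows of this length. NF-Y boxes were in windows of Elovl1, Elovl5, Fads3 and Hacd3 and in 33.8% of all windows, and the E-box was in those of Elovl5 and Hacd3 and in 6.02% of all. A match is a run of letters, not a site shown to be bound. No promoter sequence was used for Fads1, Scd2 and Elovl3.

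Around the 10 genes, 76 tested genes of 7 lists of the same pathway and its surroundings held 0 called genes by limma and 6 with an unadjusted p under 0.05. Over all tested genes, 0.277% were called by limma and 9.69% had an unadjusted p under 0.05. In the rest of the elongation cycle 6 of 8 genes were tested, 3 estimates were higher and 3 lower, and the smallest p belonged to Hacd1, a dehydratase paralogue of Hacd3, with a log2 fold change of -0.41 (SE 0.13, limma adjusted p = 0.382). In the list of other desaturases and electron carriers 7 of 12 genes were tested, with 4 higher and 3 lower. Cyb5a, the cytochrome b5 that passes electrons to the desaturases, measured 1943, 1582, 1814 and 1748 CPM in AdGFP, and 1394, 1528, 1434 and 1492 CPM in AdNAMPT. Every AdNAMPT mouse was below every AdGFP mouse, which among the 76 genes held for Cyb5a alone, where 4.79% of all tested genes had such a gap. With scaling by library size alone the Cyb5a groups overlapped. The estimate for Cyb5a was a log2 fold change of -0.27 (SE 0.08, limma adjusted p = 0.382), and over the 17 alternative fits its adjusted p lay between 0.128 and 0.673.

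All 13 genes of peroxisomal retroconversion, the step that finishes docosahexaenoic acid, were tested, with 6 estimates higher and 7 lower and a median log2 fold change of -0.0065. The smallest p was that of Pecr, a peroxisomal trans-2-enoyl-CoA reductase, at -0.21 (SE 0.08, limma adjusted p = 0.453). Activation and membrane incorporation of fatty acids had 15 of 18 genes tested, 8 higher and 7 lower, led by the phospholipase-like Pla2g12b at -0.12 (SE 0.06, limma adjusted p = 0.584). Of 16 genes that turn arachidonic acid and related chains into eicosanoids, 12 were tested, 7 higher and 5 lower. Hpgd, which inactivates prostaglandins, measured 252.2, 196.1, 247.8 and 243.6 CPM in AdGFP, and 136.6, 168.5, 156.4 and 202.3 CPM in AdNAMPT. Of the AdNAMPT mice 3 were below every AdGFP mouse. Hpgd had a log2 fold change of -0.50 (SE 0.11, limma adjusted p = 0.155) and passed the adjusted threshold only by DESeq2, at 0.0393.

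The 12 regulators, among them Srebf1, which encodes SREBP-1c, and the liver X receptors, split into 6 higher and 6 lower with a median log2 fold change of -0.0050. The smallest p among them was that of Mlx, the partner of ChREBP, at -0.13 (SE 0.07, limma adjusted p = 0.638). All 14 lipogenic reference genes had higher estimates in AdNAMPT, with a median of 0.49 beside 0.0015 for all tested genes. By limma 0 of them were called and 1 had an unadjusted p under 0.05, which 9.69% of all tested genes reached. The 14 estimates are not independent. Fasn, Acly, Acaca, Elovl6, Thrsp and Gpam were each lowest in AdNAMPT replicate 1 and highest in AdNAMPT replicate 3. All 14 stayed higher under the 3 scalings, but 10 were higher without AdNAMPT replicate 3 (median 0.16) and 10 without AdNAMPT replicate 4 (median 0.19), and the median was 0.80 without AdNAMPT replicate 1 and 0.83 without AdNAMPT replicate 2. Without sample weights 12 were higher (median 0.26), and without AdGFP replicate 1 also 12 (median 0.36). The gene with the low p was Mid1ip1, an activator of acetyl-CoA carboxylase, at 0.70 (SE 0.26, limma adjusted p = 0.453). Beside the lipogenic median of 0.49, Elovl5 was at 0.41, Fads1 at 0.013 and Fads2 at -0.05 on the same scale, and the SE of each was given above.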

How the data were processed

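Liver RNA-seq libraries of 4 AdGFP and 4 AdNAMPT db/db mice were analysed, grouped by sample title. Per the labels the processing used bcl2fastq, STAR 2.4.0b, featureCounts 1.4.5 and GRCm38; the study's methods name another STAR release. The labels name ribosomal RNA depletion and the methods poly-A selection, which were not reconciled. The deposited files hold whole-number counts of uniquely aligned reads per gene, CPM (counts over the library total) and RPKM (CPM over exonic length), all made by the authors.

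Symbols came from GENCODE M21 (40340 of 41388 features). Following the study's methods, 355 ribosomal RNA features and genes not above 1 CPM in at least 3 libraries were left out, leaving 12270 genes, with 1 library fewer required where a library was left out. TMM-scaled counts were fitted with limma's voomWithQualityWeights and eBayes on group alone, and p was adjusted by Benjamini-Hochberg over all tested genes. Log2 levels used a prior count of 2. Alternatives were edgeR's quasi-likelihood and exact tests, DESeq2, no sample weights, other scalings and filters, a replicate block, each library left out in turn, and a two-sided exact permutation test. Models ran in R 4.3.3 with DESeq2 1.42.0, edgeR 4.0.16 and limma 3.58.1, and tables and plots were made in Python 3.11.15 with scipy 1.17.1, matplotlib 3.10.9, numpy 2.4.6 and pandas 2.3.3. Simulated counts with 3-fold changes served as a self-test of limma, edgeR and DESeq2, which did not address smaller changes.

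All 10 genes were named in full. From each list the gene with the smallest p was named where none was called, and for 5 genes the 3 genes with the highest group-centred r, of which 1 is not reported here. The genes and lists were chosen with earlier results of these data known, and the lists of sex-biased, Y-linked and clock genes and Xist were written after the Elovl3 values were seen. Replicates of a group differed by more than sampling noise (chi-square per degree of freedom 12.5 to 95). Each library is labelled as its own mouse, and p-values set the difference between groups against the spread between these mice. The limit of 3 counts covers counting error only.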

Additional observations from a re-analysis of the deposited data

Results flagged for a closer look

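In 20 groups of 4 libraries (10 genes in each of the 2 groups), a library was noted where its gap to its nearest neighbour exceeded Dixon's 95% critical share of the group's range; chance alone gives about 1 in 20, and 2 were found, both in AdNAMPT replicate 1. Elovl3 was at 108.4 CPM in that library, with a gap of 0.856 of the range, which fell to 0.679 on the log2 scale, below the critical share. Hacd3 was at 188.9 CPM there, with a gap of 0.995 of the range, and of 0.996 on the log2 scale, since the other 3 AdNAMPT mice were nearly equal. The causes were not tested.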

How the results depend on the processing

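The 10 genes gave 0 calls in each of the 17 alternative fits. Over all tested genes, the 34 calls became 65 with edgeR's exact test and 75 with DESeq2, and the 76 genes of the lists gave 1 call, Hpgd, with DESeq2; the cause was not tested. Estimates near 0 changed sign in 28 of 180 combinations of gene and setting. Fads1 was at -0.0725 without sample weights, -0.045 without a filter and -0.0564 as the plain difference of means; with library size alone, which moved the median of all genes to 0.09, Fads2 was at 0.0275, Fads6 at 0.0382 and Elovl1 at 0.0072. Hacd3 was at -0.0217 with edgeR's quasi-likelihood, -0.0216 with its exact test, -0.0196 with DESeq2, -0.0244 as the plain difference of means, -0.0264 without weights and -0.0077 without a filter. Leaving out 1 library gave -0.17 to 0.20 for Fads1, -0.29 to 0.20 for Fads2, -0.0568 to 0.15 for Fads3, -0.0757 to 0.0191 for Fads6, -0.13 to 0.0016 for Elovl1 and -0.0178 to 0.046 for Hacd3. Signs of Elovl2, Elovl3, Elovl5 and Scd2 stayed the same in all settings run. The size of the Elovl5 estimate ran from 0.13 to 0.72 when single libraries were dropped.

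Replicate numbers were not taken to pair mice, because same-numbered deviations correlated at 0.225, -0.05, 0.213 and 0.0052, and not every library correlated best with its own number. With the replicate block 41 genes were called and 0 of the 10, Hacd3 was at -0.0181, and 13 of the 14 lipogenic reference genes were higher. With 4 mice a group, the intervals of Fads2, Elovl3, Elovl5 and Scd2 span more than 2-fold from end to end.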

Other observations

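Genes whose levels followed one of the 10 most closely between mice of a group are named with Pearson's r over the 8 livers after removal of the group means, as a description. The highest r were found by searching all tested genes, and the points share library, depth and scaling. For Fads1 they were Aldh1b1, a mitochondrial aldehyde dehydrogenase (0.993, and 0.991 without AdNAMPT replicate 1), Esr1, the estrogen receptor alpha (0.990 and 0.960), and the class I histocompatibility gene H2-Q10 (0.987 and 0.945). Esr1 measured 25.02, 32.7, 28.5 and 36.1 CPM in AdGFP, and 7.42, 15.8, 26.6 and 28.3 CPM in AdNAMPT, lowest like Fads1 in AdNAMPT replicate 1. For Fads2 they were Txndc12 (0.995), Coq4 of ubiquinone synthesis (0.994) and Gramd4 (0.992), and for Elovl5 the phosphodiesterase Pde4d (0.994), the galectin Lgals1 (0.993) and Tiparp (0.992). For Scd2 they included Zbp1 (0.991) and Wdr41 (0.990). For Elovl3 they were Simc1 (0.991), Yrdc (0.991) and Fam8a1 (0.986), which fell to 0.932, 0.922 and 0.955 without AdNAMPT replicate 1.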
